A study of Danio rerio with 6 samples.

Results

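The blood miRNAs miR-142, miR-144, miR-451 and miR-223 were followed in small RNA libraries of whole zebrafish embryos. All mature miRNAs of the deposited table that carry one of these numbers, with any letter or arm suffix, were taken. They were 6 of 230 mature miRNAs, namely dre-miR-144, dre-miR-451, dre-miR-142a-5p, dre-miR-142a-3p, dre-miR-142b-5p and dre-miR-223, written without the species prefix below, and each had 1 entry in the table. Embryos of the wild-type AB strain had been injected at the 1-cell stage with 1.5 ng of either MO-Tbx5a, a morpholino directed at the start codon region of the tbx5a transcript, or the control morpholino MO-Ct. Every library came from 50 pooled embryos, so the libraries do not separate organs or single animals. At 24 hpf (hours post fertilization) each morpholino had 2 libraries from 2 batches of embryos, and at 48 hpf each had 1. The morpholino is meant to block translation, and loss of Tbx5a protein cannot be seen in small RNA data.

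The direction at 48 hpf is given as the libraries are labelled. Nearly every miRNA on the study's own list of changed miRNAs at this stage that has a row in the table runs the other way there. The study's qRT-PCR, which did not use these libraries' reads, follows its list at this stage. The names of both 48 hpf libraries may thus be exchanged in the deposited table or its labels. Every statement below on MO-Tbx5a and MO-Ct at 48 hpf is about the library labelled as such. On the study's microarrays haemoglobin genes were among those lower in MO-Tbx5a at 48 hpf. Whether haemoglobin mRNA and the red cell miRNAs move together was not tested, and the direction of the members is no evidence on the names. An exchange leaves the sizes of the stage changes fitted on all 6 libraries as they are but moves their errors and adjusted p. Both are given where a call depends on an exchange. Stage changes within a single morpholino, or with a library left out, would differ in size with exchanged names.

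Red cells and white cells of vertebrates carry different miRNAs. miR-144 and miR-451 are made from one transcript that the red cell factor GATA1 switches on, and they act in red cell maturation. miR-451 is unusual in that its precursor is cut by Argonaute2 and not by Dicer. In the RefSeq annotation of the GRCz12tu assembly, mir144 and mir451 are direct neighbours. miR-142 is found in most blood lineages and is strongest in white cells, and zebrafish use it in the formation of blood stem cells and neutrophils. miR-223 is a miRNA of the myeloid lineage, chiefly of neutrophils. By 24 hpf the first red cells of the zebrafish begin to circulate, and by 48 hpf circulation is established.

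The values are normalized reads, the reads of a library divided by its size factor. A read was worth between 0.466 and 1.87 normalized reads, and the mature miRNAs of the table held 1699876 to 3148888 such reads per library. These sums exceed the miRNA reads that the study lists for each library, by a larger factor at 48 hpf than at 24 hpf. At 48 hpf the sum was higher in MO-Ct than in MO-Tbx5a, whereas the study lists more miRNA reads for MO-Tbx5a. miR-126a-5p and miR-126b-5p, outside the members, had nearly equal values in every library (2824.4 and 2825.73 in MO-Ct batch 1 at 24 hpf). Whether reads on the members were counted for several related miRNAs was not tested. The counting intervals below take each read as 1 independent read. All 6 members were detected in every library, but with few reads, from 2 to 547 per miRNA and library, and counting error alone is large for most of them. The maternal clearance family miR-430 held 46.0% to 58.7% of the normalized reads at 24 hpf. At 48 hpf it held 15.2% in MO-Ct and 5.15% in MO-Tbx5a. Its most abundant member, miR-430b, had a log2 change of -4.11 between the stages. With one dominant family leaving, the scale between the stages rests on the size factors, and stage changes below are also given relative to the median of all miRNAs.

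miR-451 showed the clearest pattern of the group. At 24 hpf it had 25.3 and 30.3 normalized reads in MO-Ct batches 1 and 2. In MO-Tbx5a batches 1 and 2 it had 26.2 and 17.02. The 48 hpf values were 106 in MO-Ct and 299 in MO-Tbx5a, so both libraries of the later stage lay above all 4 of the earlier one. Both 48 hpf libraries lay above the range of the 24 hpf libraries for 25.2% of the 214 miRNAs tested between the stages, and below it for 39.7%. In RPM over the reads on mature miRNAs, its level was 6.03 to 11.3 at 24 hpf and 89.7 and 282 at 48 hpf, in the same order.

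The change of miR-451 between the stages was tested in all 6 libraries with the morpholino as a covariate. On the log2(value + 2) scale it rose by 2.78 (standard error 0.47, Benjamini-Hochberg adjusted p = 0.00336 by limma), the seventh highest change among the 214 miRNAs. In the same fit 52.3% of all miRNAs were called at an adjusted p under 0.05, with 18.7% higher and 33.6% lower at 48 hpf. Relative to the median of all miRNAs the rise was 3.08. miR-451 passed the threshold in every alternative that kept both 48 hpf libraries. Its log2 changes over all 17 alternatives ran from 1.87 to 4.13. The lowest of these came without the MO-Tbx5a library at 48 hpf and the highest with library totals as the scale. In embryos as a whole, more cells of a type and more miRNA per cell cannot be told apart.

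miR-144, the partner of miR-451, had 69.2 and 53.3 normalized reads in the MO-Ct batches at 24 hpf. In the MO-Tbx5a batches it had 46.8 and 43.9. At 48 hpf MO-Ct had 64.4, within the 24 hpf range, and MO-Tbx5a had 143, above it. The log2 change between the stages was 0.85 (standard error 0.40, 95% interval -0.093 to 1.79, Benjamini-Hochberg adjusted p = 0.110 by limma) and did not pass the threshold. With the names of the 48 hpf libraries exchanged, the same change had a standard error of 0.29 and passed it (adjusted p = 0.0351 by limma). The size of the change depended on which 48 hpf library was kept. The log2 change was 0.081 without the MO-Tbx5a library at 48 hpf and 1.61 without the MO-Ct library. Each of these fits leaves 1 library at 48 hpf, so no p is given. Relative to the median of all miRNAs the change was 1.14.

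**Figure D1:**
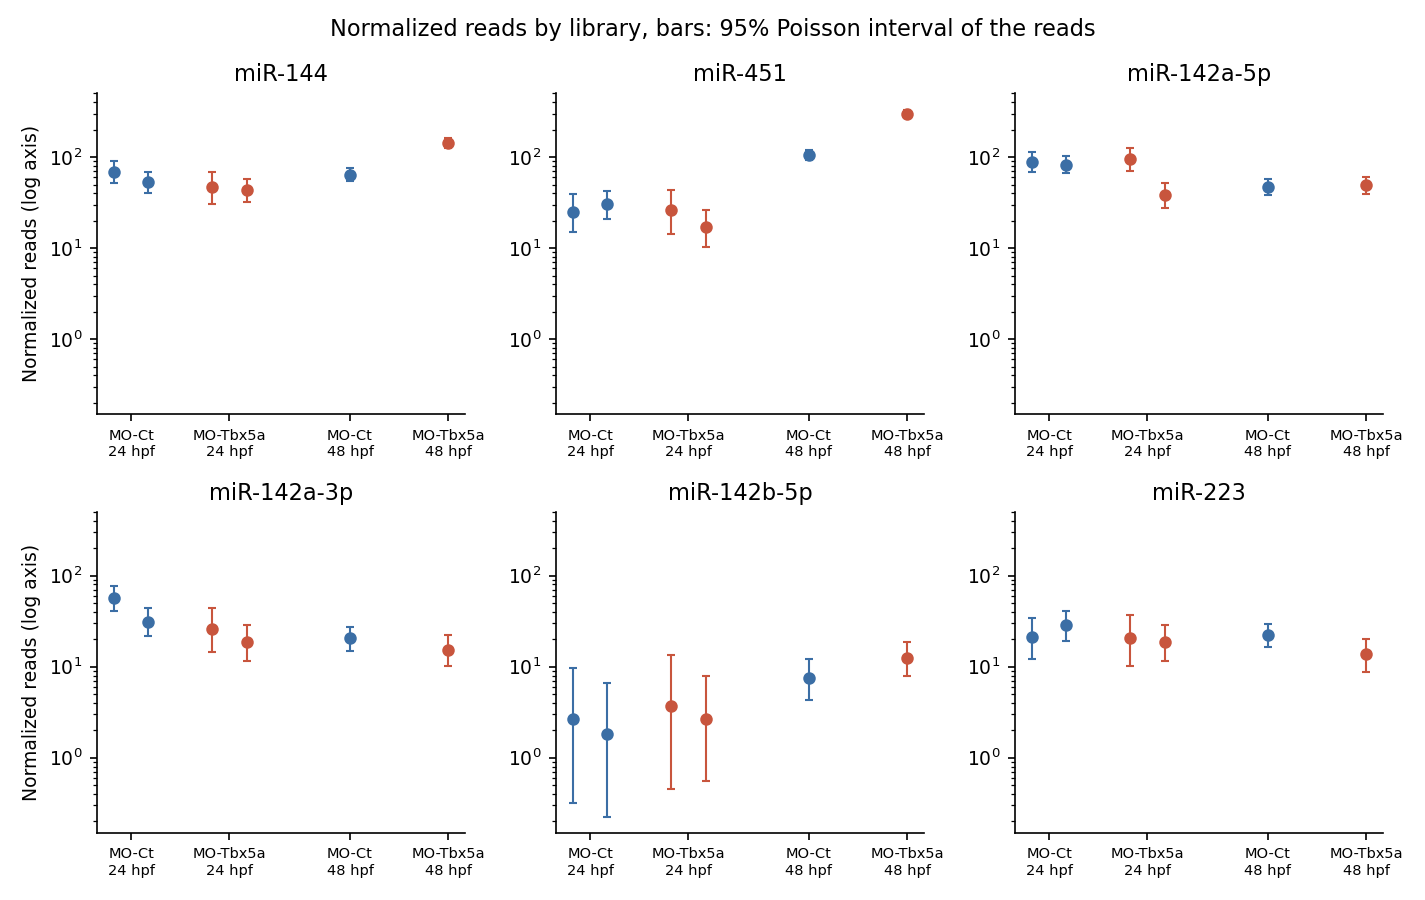
Normalized reads of the 6 blood miRNAs (log axis) in each library, with MO-Ct in blue and MO-Tbx5a in red; each point is 1 library and the bars are 95% exact Poisson intervals of its reads. miR-451 lies at 17.02 to 30.3 in the 24 hpf libraries and at 106 and 299 at 48 hpf, while miR-142a-3p and miR-223 stay below 60 in all of them.

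The balance of miR-451 to miR-144 does not depend on the scaling of a library, because both are counted in it. Of the reads on either miRNA, miR-451 held 26.8% and 36.3% in the MO-Ct batches and 35.9% and 27.9% in the MO-Tbx5a batches at 24 hpf. The later stage had 62.3% in MO-Ct (95% exact Clopper-Pearson interval 57.1% to 67.3%) and 67.7% in MO-Tbx5a (64.4% to 70.9%). The 24 hpf intervals, of which the highest upper bound was 52.8%, did not reach those at 48 hpf. The mean share was 31.7% ± 5.07 (SD, n = 4 libraries) at 24 hpf and 65.0% ± 3.82 (SD, n = 2 libraries) at 48 hpf. An exact permutation test of 4 against 2 libraries gave a two-sided p of 0.133, taken as 2 times the one-sided p. This is the smallest p that this test can give here. After Benjamini-Hochberg adjustment over the 3 shares compared the p was 0.2. Ligation in small RNA libraries differs between sequences, so a share is not a ratio of molecules in the embryo. Comparing shares across libraries takes reads to be counted alike in all of them, which was not tested.

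The arms of the miR-142a hairpin were both measured. miR-142a-5p had 89.1 and 82.7 normalized reads in the MO-Ct batches and 95.5 and 38.5 in the MO-Tbx5a batches at 24 hpf, and 47.6 in MO-Ct and 49.3 in MO-Tbx5a at 48 hpf. MO-Tbx5a batch 2 stood below the other 24 hpf libraries, and the 48 hpf libraries lay within the range of the earlier ones. miR-142a-3p had 57.2 and 31.2 normalized reads in the MO-Ct batches and 26.2 and 18.8 in the MO-Tbx5a batches at 24 hpf. The 48 hpf libraries had 20.5 in MO-Ct and 15.3 in MO-Tbx5a. The 3p arm was therefore highest in MO-Ct batch 1 and lowest at 48 hpf in MO-Tbx5a, and the stages overlapped.

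Neither arm passed the threshold between the stages. The log2 change was -0.56 for miR-142a-5p (standard error 0.41, adjusted p = 0.269) and -0.73 for miR-142a-3p (standard error 0.40, adjusted p = 0.165), both by limma. These signs are those of the deposited size factors and turned with library totals, where the changes were 0.80 and 0.56. Relative to the median of all miRNAs they were -0.27 and -0.44 with the deposited size factors and -0.32 and -0.55 with library totals. The 5p arm had more reads than the 3p arm in all 6 libraries. The 3p share ranged from 21.5% to 39.1% at 24 hpf and was 30.1% in MO-Ct and 23.7% in MO-Tbx5a at 48 hpf, with a difference between the stage means of -3.28 percentage points (exact two-sided permutation p = 0.667, 4 against 2 libraries).

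miR-142b-5p, from the second miR-142 hairpin, was the lowest member. At 24 hpf it rested on 2 reads in each of 3 libraries and on 3 in MO-Tbx5a batch 2, or 1.84 to 3.74 normalized reads. In the 48 hpf libraries it reached 7.46 normalized reads in MO-Ct and 12.6 in MO-Tbx5a, from 16 and 23 reads. Both lay above all 24 hpf libraries, as was so for 25.2% of the 214 miRNAs tested between the stages. miR-142b-5p is not among these 214. It reached 10 normalized reads in 1 library only and was left out of both fits for low values. Over the pooled reads, 9 at 24 hpf and 39 at 48 hpf, the normalized level was 3.81 times as high at 48 hpf, with a 95% counting interval of 1.82 to 8.94 that leaves the spread between libraries out. Without a filter on low values its log2 change was 1.33 (Benjamini-Hochberg adjusted p = 0.0341 by limma). In that fit 116 of 230 miRNAs were called, 44 of them higher at 48 hpf.

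Set against miR-142a-5p in the same libraries, miR-142b-5p held 2.17% to 6.52% of the reads on either at 24 hpf. This share was 13.6% (95% exact Clopper-Pearson interval 7.95% to 21.1%) in MO-Ct and 20.4% (13.4% to 29.0%) in MO-Tbx5a at 48 hpf. The intervals of the stages overlapped, since the highest 24 hpf bound was 17.9%. The same exact two-sided permutation test over 4 and 2 libraries again gave its smallest possible p of 0.133. The authors' mapping accepted reads with 95% identity to a precursor, and reads assigned to the wrong one of these related miRNAs were not tested for.

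**Figure D2:**
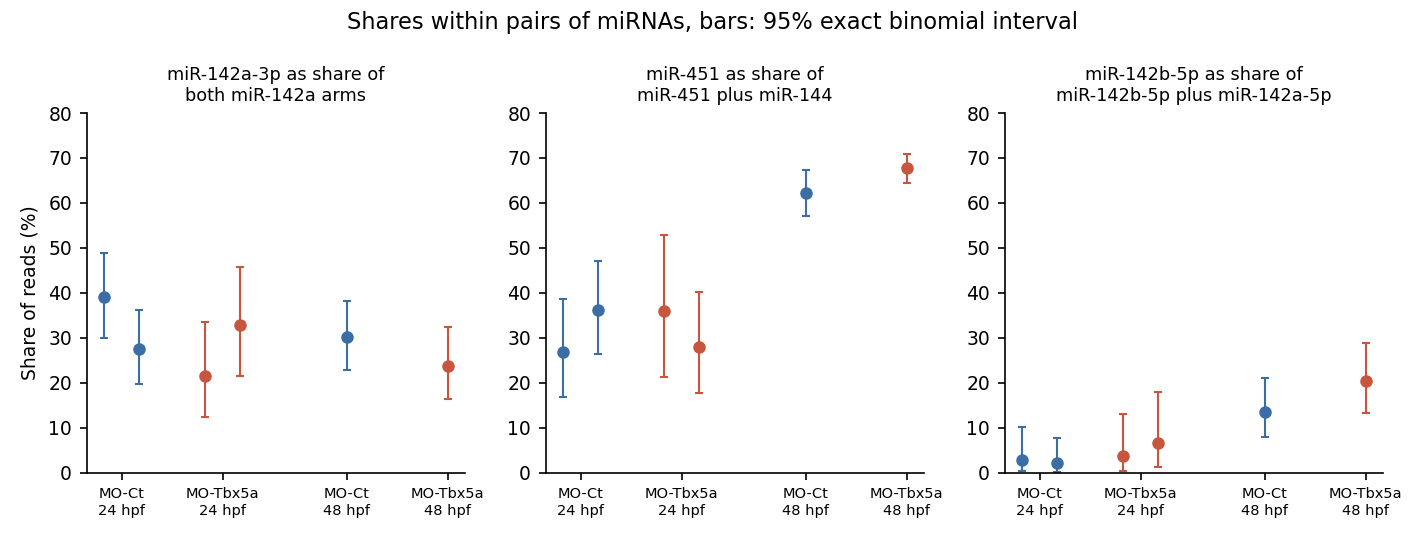
Share of reads (%) within 3 pairs of blood miRNAs by library, with MO-Ct in blue and MO-Tbx5a in red; bars are 95% exact binomial intervals. The miR-451 share is 26.8% to 36.3% in the 24 hpf libraries and 62.3% and 67.7% at 48 hpf, while the miR-142a-3p share stays between 21.5% and 39.1% in all libraries.

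miR-223 had 21.3 and 28.5 normalized reads in the MO-Ct batches and 20.6 and 18.8 in the MO-Tbx5a batches at 24 hpf. At the later stage it had 22.4 in MO-Ct and 13.7 in MO-Tbx5a. The MO-Ct library at 48 hpf lay inside the 24 hpf range and the MO-Tbx5a library below it. Its log2 change between the stages was -0.30 (standard error 0.36, Benjamini-Hochberg adjusted p = 0.533 by limma), which turned to 0.98 with library totals (adjusted p = 0.0342 by limma) and to 0.14 with totals that left out the miR-430 family. Relative to the median of all miRNAs it was -0.0073 with the deposited size factors and -0.13 with library totals.

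The 5 members that could be tested between the stages thus comprised 1 call, miR-451, beside 52.3% of all miRNAs called. The scale moved all of them together. Median-ratio size factors put the median log2 change of all miRNAs at 0.034, totals without miR-430 at 0.21 and library totals at 1.11, where the deposited size factors gave -0.29. Relative to that median, miR-451 stayed between 3.02 and 3.08 and miR-144 between 1.10 and 1.14 under these 4 scalings. Rescaling whole libraries shifts every miRNA and the median nearly alike. This steadiness was therefore fixed in advance and is no support for the changes. As fitted, miR-144 was called with library totals (log2 change 2.21) and with totals without miR-430 (1.32).

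**Figure D3:**
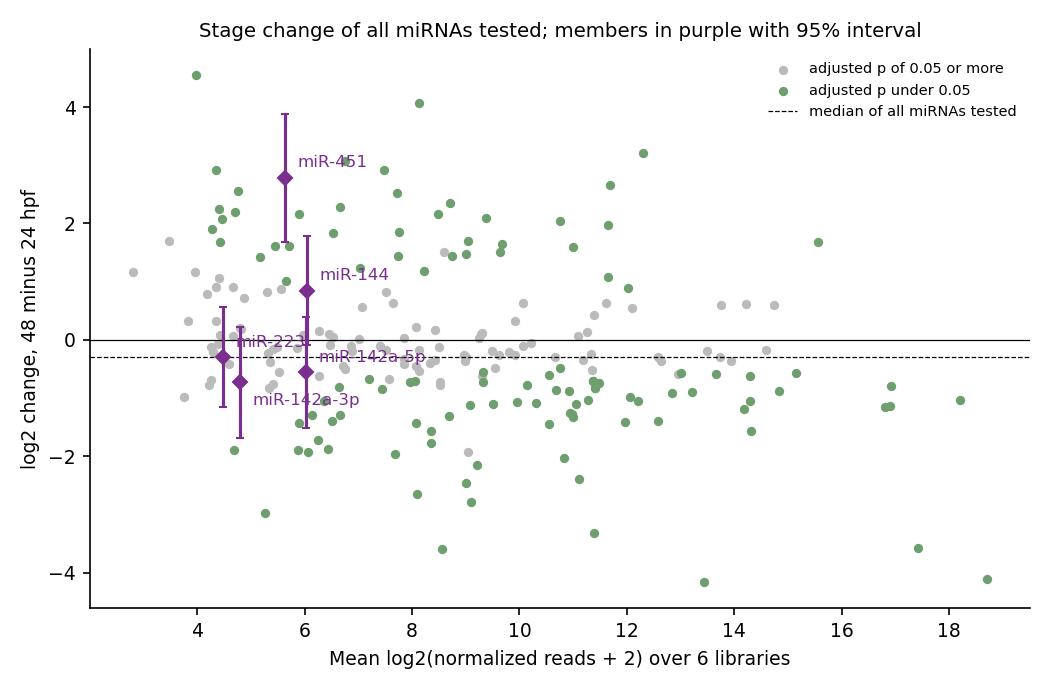
log2 change from 24 to 48 hpf (vertical axis) against the mean log2(normalized reads + 2) over the 6 libraries for the 214 miRNAs tested; members are purple diamonds with 95% limma intervals. miR-451, at 2.78, lies far above the dashed median of all miRNAs at -0.29, and miR-142a-5p, miR-142a-3p and miR-223 lie near it.

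**Figure D4:**
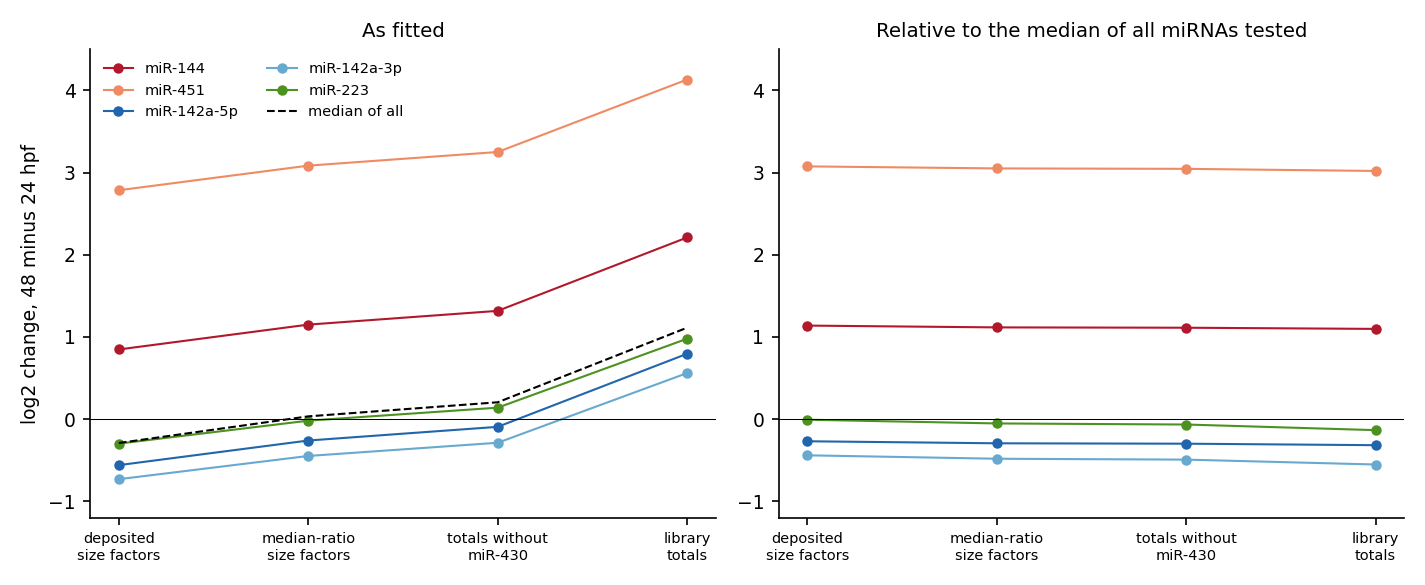
log2 change from 24 to 48 hpf of the 5 members tested under 4 scalings of the libraries, as fitted (left) and relative to the median of all miRNAs tested (right). On the left the lines rise with the dashed median from -0.29 to 1.11. On the right miR-451 stays between 3.02 and 3.08, because rescaling whole libraries shifts all miRNAs and their median nearly alike.

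At 24 hpf none of the 5 members tested passed the threshold between the morpholinos by limma. Of the 210 miRNAs tested 7.62% were called, 3.33% higher and 4.29% lower in MO-Tbx5a. One member, miR-142a-3p, had an unadjusted p under 0.05. Its log2 change of -0.87 (standard error 0.41, adjusted p = 0.187 by limma) was the fifth lowest of all. Part of it rested on one batch of controls, since MO-Ct batch 1 had 1.83 times the level of batch 2, with a 95% counting interval of 1.14 to 2.96. Without MO-Ct batch 1 the log2 change was -0.46 and without MO-Ct batch 2 it was -1.29, the ends of the range over the left-out libraries. miR-142b-5p, left out of the fit for low values, had a log2 change of 0.29 without a filter (adjusted p = 0.820 by limma).

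The other members had log2 changes at 24 hpf of -0.48 for miR-142a-5p, -0.41 for miR-144, -0.36 for miR-451 and -0.30 for miR-223. Their standard errors were 0.32 to 0.45 and their adjusted p from limma 0.423 to 0.738. The MO-Tbx5a batches of miR-142a-5p differed 2.48-fold, with a counting interval of 1.62 to 3.81, and without batch 2 its log2 change was 0.15. The batch ratios of miR-144, miR-451 and miR-223 all lay within counting error. Both MO-Tbx5a libraries lay below both MO-Ct libraries for 3 of the 5, namely miR-144, miR-142a-3p and miR-223, beside 29.5% of all miRNAs. The libraries of the morpholinos did not overlap, in either direction, for 52.4% of all miRNAs. With 2 against 2 libraries an exact permutation test cannot go below p = 0.33.

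At 48 hpf both red cell miRNAs differed between the libraries by more than counting error, and were higher in the one labelled MO-Tbx5a. The other 4 members had fewer reads in each of these libraries, so a difference of the same size is harder to tell from counting error in them. Their counting intervals did not exclude a ratio of 1. Those of miR-142a-5p, miR-142a-3p and miR-223 lay below those of both red cell miRNAs, but that of miR-142b-5p overlapped them. How many of all miRNAs differed by more than counting error at 48 hpf was not determined. Taken over all miRNAs, even batches that shared a morpholino at 24 hpf differed far beyond it. Chi-square per degree of freedom reached 101 between the MO-Tbx5a batches and 110 between the MO-Ct batches. A difference beyond counting error thus does not by itself set the red cell miRNAs apart. Their own batch ratios at 24 hpf lay within counting error, but rested on fewer reads. With 1 library per morpholino the 48 hpf ratios have no replicate check and no test. miR-451 was 2.82 times (95% counting interval 2.41 to 3.30) and miR-144 2.22 times (1.8 to 2.75) as high in MO-Tbx5a as in MO-Ct. With exchanged names these ratios would be 0.355 and 0.45. For miR-142a-5p the ratio was 1.04 (0.771 to 1.39), for miR-142a-3p 0.747 (0.448 to 1.23), for miR-142b-5p 1.69 (0.853 to 3.42) and for miR-223 0.611 (0.361 to 1.01), all with intervals that included 1. In sum, miR-144 and miR-451 had 171 normalized reads in MO-Ct and 442 in MO-Tbx5a, and the other 4 had 97.9 and 90.9. A difference of at least 2-fold in either direction was found for 25.6% of 219 miRNAs, with 16.4% higher and 9.13% lower in MO-Tbx5a.

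**Figure D5:**
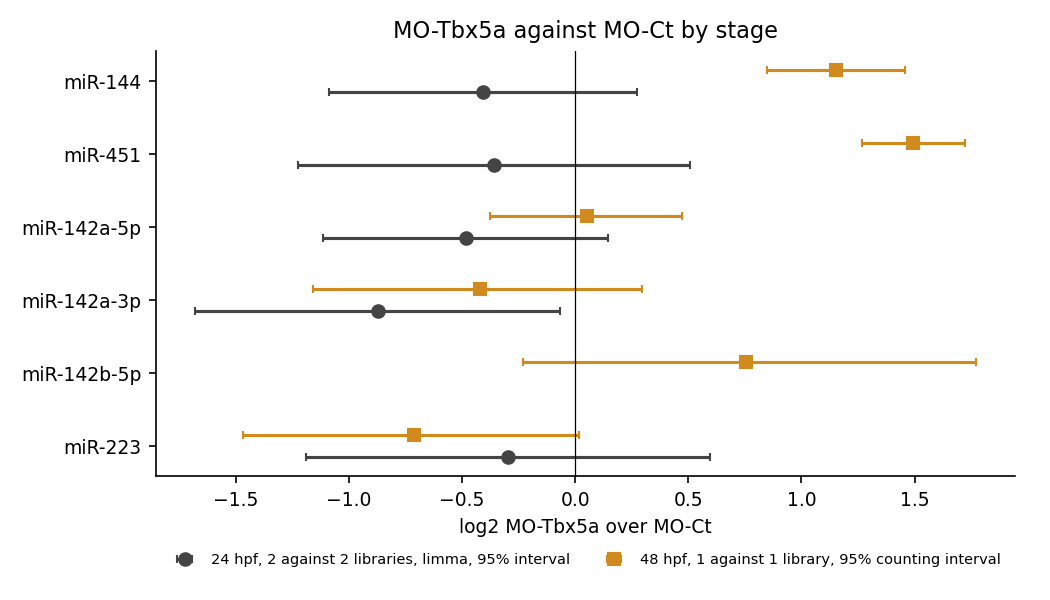
log2 of MO-Tbx5a over MO-Ct, as labelled, for the 5 members tested at 24 hpf (circles, limma on log2(value + 2), 95% interval, 2 against 2 libraries) and for all 6 at 48 hpf (squares, ratio of normalized reads of 1 library each, 95% counting interval). The 24 hpf points of these 5 lie left of zero and miR-142b-5p has none; at 48 hpf miR-144 and miR-451 lie right of it with intervals that do not include it.

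Other miRNA groups moved with the 48 hpf libraries. A list of 5 neuronal miRNAs (of miR-9, miR-124, miR-128 and miR-138) summed to 6439 to 8091 normalized reads at 24 hpf, 17301 in MO-Ct and 56584 in MO-Tbx5a at 48 hpf. The 4 members of the miR-430 list summed to 180147 in MO-Ct and 54682 in MO-Tbx5a. In both lists, as for miR-451 and miR-144, the MO-Ct library lay nearer to the 24 hpf libraries. So it did for the 7 miRNAs of epidermis and epithelium. They summed to 64852 to 74457 at 24 hpf, 42604 in MO-Ct and 29947 in MO-Tbx5a at 48 hpf. Only in sum did the 7 muscle miRNAs go the other way. They summed to 6738 to 9381 at 24 hpf, 12888 in MO-Ct and 10381 in MO-Tbx5a at 48 hpf. Single muscle miRNAs were mixed, with 2 called higher between the stages, 2 lower and 3 not called by limma. The 4 forms of the endothelial miR-126 summed to 6630 to 8113 at 24 hpf, 5653 in MO-Ct and 3949 in MO-Tbx5a. These miR-126 sums hold both miR-126a-5p and miR-126b-5p, whose values were nearly equal. The part of such shifts in the ratios of the blood miRNAs was not tested.

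A wider list of 23 miRNAs linked to blood and immunity (of miR-21, miR-24, miR-27, miR-126, miR-146, miR-150, miR-155, miR-181, miR-221, miR-222, miR-462 and miR-731) was read beside the members. With the deposited size factors 2 rose between the stages, miR-181a-5p and miR-181c, 9 fell and 12 were not called, with a median log2 change of -0.58 beside -0.29 over all miRNAs, of which 18.7% rose and 33.6% fell. miR-155, a miRNA of activated lymphocytes and macrophages, fell by 1.92 on the log2 scale (Benjamini-Hochberg adjusted p = 0.00532 by limma). miR-150, a miRNA of mature lymphocytes, fell by 1.39 (adjusted p = 0.00664 by limma). miR-150 had 87.8 to 155.3 normalized reads in the 24 hpf libraries and 44.3 and 47.1 at 48 hpf. The others that fell were miR-126a-5p, miR-126b-3p, miR-126b-5p, miR-221, miR-222a, miR-24 and miR-27d. Of these, miR-126a-5p and miR-126b-5p had nearly equal values in every library and cannot be taken as separate falls. The split depended on the scale. With library totals 14 of the 23 were called higher and 0 lower by limma, and 0 were lower at an unadjusted p under 0.05. Most miRNAs rose on this scale, with 154 of all miRNAs called higher and 12 lower. The median log2 change of the list was 0.81 there, below the 1.11 over all miRNAs. Of the 9 that fell, 3 stayed called with median-ratio size factors, 2 with totals without miR-430 and 0 with library totals, where 3 were still lower, among them miR-155 (log2 change -0.59, adjusted p = 0.126 by limma). miR-181a-5p and miR-181c were higher at 48 hpf under all 4 scalings, with log2 changes of 1.68 to 3.43. At 24 hpf miR-181c alone was called between the morpholinos, lower in MO-Tbx5a with a log2 change of -0.73 (adjusted p = 0.00182 by limma).

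Over the 6 libraries, the log2 levels of miR-451 and miR-144 had a Pearson r of 0.89, and those of the miR-142a arms 0.75. miR-451 had an r of 0.94 with miR-142b-5p and of -0.55 with miR-142a-3p. Outside the group, the miRNAs whose levels were most like those of miR-451 were miR-125a, miR-218b, miR-100, miR-125b and miR-99 (r of 0.986 to 0.996). Those most like miR-144 were miR-128, miR-183, miR-96, miR-182-5p and miR-124 (0.97 to 0.98), and miR-142b-5p came closest to miR-2188-3p, let-7d, miR-153a, miR-218b and miR-138 (0.95 to 0.99). For miR-142a-5p they were miR-30b, miR-205, miR-30c, miR-727-5p and miR-7b (0.70 to 0.94), and for miR-142a-3p miR-205, miR-30c, miR-133b-3p, miR-18c and miR-30d (0.83 to 0.92). For miR-223 they were miR-146b, miR-133a-5p, miR-206, miR-30d and miR-92b (0.82 to 0.98). These values describe 6 libraries that share stage, scaling and, at 24 hpf, possibly batch.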

How the data were processed

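The authors demultiplexed reads with CASAVA 1.8, trimmed adapters, mapped reads of 17 to 38 nt to zebrafish precursors of miRBase release 20 with miRExpress (95% identity, a length tolerance of 4 nt), took the sum for each miRNA and scaled every library by its DESeq size factor. What they deposited is thus a signal, normalized reads, and not raw counts. Samples were grouped by their titles, and table columns were assigned by the sample names in the descriptions.

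In each library 99.7% to 100% of the values above 0 were whole multiples of 1 step to within 0.1 of that step, which was read as the value of 1 sequenced read. The reads so recovered gave the counting intervals (exact Poisson or Clopper-Pearson, 95%), which cover counting error only. As the values are normalized, no count model was used in the main tests. Values were averaged by mature name. The 24 hpf batches of one morpholino were not the same library deposited again (chi-square per degree of freedom 110 for MO-Ct and 101 for MO-Tbx5a). Nothing says whether equal batch numbers were shared between morpholinos.

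Linear models with a variance trend were fitted by limma 3.58.1 (R 4.3.3) on the log2(value + 2) scale, which understates the change of low miRNAs. At 24 hpf the fit used the 4 libraries, and between the stages all 6 with the morpholino as covariate. Only miRNAs that reached 10 normalized reads in 2 or more libraries of the fit were tested. Tests were two-sided, and calls were made at a Benjamini-Hochberg adjusted p under 0.05. The permutation tests of the shares were not planned in advance. In the stage fit the 48 hpf libraries serve as replicates of the stage, and a difference of the morpholino effect between stages stays in the residual. The fits were also run on simulated reads, in which only miRNAs above a set mean level were changed. miR-142a-3p, miR-142b-5p and miR-223 lay below that level, so the simulation does not cover changes in them. miR-451 passed it only through its 48 hpf values, with a mean of 24.7 normalized reads over the 24 hpf libraries. Its test at 24 hpf is therefore not covered either. The simulated spread was a fixed value and was not estimated from the libraries. Alternatives were 3 other scalings, 2 other pseudocounts, 2 other filters, no variance trend, every precursor separately, a replicate block at 24 hpf, the morpholinos separately, leaving out each library in turn, voom on the recovered reads, and exchanged names of the 48 hpf libraries in the stage fit, the last 2 chosen after seeing the data. The miRNAs named are the members, the 5 most like each of them by Pearson r among miRNAs with a mean of at least 10, the members of the blood and immune list that were called, and miR-430b. The members and lists were chosen with earlier results of these data known. Python 3.11.15 with numpy 2.4.6, pandas 2.3.3, scipy 1.17.1 and matplotlib 3.10.9 was used. The microarrays and target predictions were not analysed here.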

Additional observations from a re-analysis of the deposited data

Results flagged for a closer look

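miR-144 lay lower in both MO-Tbx5a libraries than in both MO-Ct libraries at 24 hpf, whereas at 48 hpf the library labelled MO-Tbx5a was higher with a log2 ratio on the log2(value + 2) scale of 1.13. At 24 hpf the log2 change was -0.41 and was not called (Benjamini-Hochberg adjusted p = 0.554 by limma). The difference between the stages was not tested, 48 hpf has 1 library per morpholino, and with exchanged names of these libraries miR-144 would lie lower in MO-Tbx5a at both stages.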

How the results depend on the processing

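Of the members, miR-451 was called between the stages in every alternative with a test that kept both 48 hpf libraries. None was called between the morpholinos at 24 hpf in any of the 15 alternatives with a test. With library totals the stage changes turned sign for miR-142a-5p (0.80), miR-142a-3p (0.56) and miR-223 (0.98), and with totals without miR-430 for miR-223 (0.14). miR-144 was called with library totals (2.21) and totals without miR-430 (1.32). It was also called, at the same change of 0.85, with the names of the 48 hpf libraries exchanged, where 119 miRNAs were called, 110 of the 112 among them. Over the left-out libraries its stage change ranged from 0.081 to 1.61. In MO-Ct libraries alone, as labelled, the stage change was 0.081 for miR-144 and 1.87 for miR-451. In MO-Tbx5a libraries alone the changes were 1.61 and 3.70. These values repeat the fits that left out the 48 hpf library of the other morpholino and are no separate check. At 24 hpf the change of miR-142a-5p ranged from -1.12 to 0.15 and that of miR-142a-3p from -1.29 to -0.46 over the left-out libraries. miR-142b-5p, tested only where its low values passed, had stage changes of 1.33 without a filter and 2.39 with library totals. With library totals it passed the filter only through the 48 hpf libraries, where it is high, so that change is no support for a rise. The median change of all miRNAs was 1.11 on that scale. The causes were not tested.

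The 16 miRNAs called at 24 hpf became 6 with median-ratio size factors, 2 with totals without miR-430, 1 without the variance trend and 0 with library totals (limma, 38 at an unadjusted p under 0.05). Leaving out each library gave 0 to 14 calls, with 0 without either MO-Ct batch (25 at an unadjusted p under 0.05 each), 5 without MO-Tbx5a batch 1 and 14 without batch 2, and voom on the recovered reads gave 12. The replicate block gave 39, the 16 among them, and called no member. The batch differences of the morpholinos correlated at r = 0.28 across 210 miRNAs. Between the stages 112 miRNAs were called, 40 higher and 72 lower, and 86 to 101 with each 24 hpf library left out. The split was 53 higher and 50 lower with median-ratio size factors, 63 and 33 with totals without miR-430, 154 and 12 with library totals, and 71 and 80 with every precursor separately. Depth limits the members, with 2 to 547 reads per library.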
